A study of Mus musculus with 6 samples.

Results

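The levels of Wfdc16 and of 6 related WAP four-disulfide core genes in mouse renal cortex were read from Agilent arrays with 1 colour, 3 labelled db/m (control) and 3 labelled db/db (model), all from males. The members were the non-control probes whose gene name in the scanner file of labelled db/db replicate 1 was Wfdc16, Wfdc15a, Wfdc15b, Wfdc1, Wfdc2, Wfdc3 or Slpi, which gave 12 of 56605 probes for 7 of 22911 named genes. All mice were 16 weeks of age. db/db mice lack a working leptin receptor on both alleles and become obese and diabetic, and db/m mice carry 1 such allele. A treatment with Huangqi decoction (HQD), an herbal preparation, for 8 weeks is stated with every sample, while the design text and the paper describe HQD-treated and untreated db/db mice, so that genotype and treatment cannot be told apart here. The conditions were kept as labelled, and every difference is the mean of labelled db/m minus the mean of labelled db/db. The study asked how HQD changes gene expression in the diabetic renal cortex.

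The whey acidic protein (WAP) domain is a small, cysteine-rich fold held by 4 disulfide bonds. Many proteins that carry it are secreted and inhibit serine proteases or act against bacteria at epithelial surfaces. In mouse most of the family lies in a cluster on chromosome 2, which also holds Slpi, whereas Wfdc1 lies on chromosome 8.

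The arrays read each gene through a 60-base probe, and the last 30 bases of 6 member probes are shown because the results turn on them, with the place of the whole probe on the mm9 build. Capitals mark the letters AATAAA, the common polyadenylation signal, which only the Wfdc15b and Wfdc2 probes held among the 12 member probes. The longest run of bases shared by any pair of member probes was 11, between Wfdc2 and a Slpi probe. The Wfdc15a and Wfdc15b probes each shared at most 7 bases with another member probe.
Wfdc16 A_66_P126733, chr2:164460295-164460354 (minus strand): cttaaacatcacctgcttgtcactaggatt
Wfdc15a A_51_P323770, chr2:164025407-164025466 (minus strand): tgtcagatgcggtgtgtggaaccctggaca
Wfdc15b A_55_P2005984, chr2:164040205-164040264 (minus strand): tgcttgttaatatgagtacaaAATAAAgga
Wfdc2 A_51_P465211, chr2:164393935-164393994 (plus strand): tttctaaccAATAAAgtgatcgctttcagc
Slpi A_66_P112306, chr2:164182009-164182068 (minus strand): actggtcatcagagctcccctgccttcacc
Slpi A_52_P472324, chr2:164179849-164179908 (minus strand): gctcagcattcaccgatctttagggaaatg

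The 250 bases before the annotated start of Wfdc16 and of Wfdc15b are shown because these genes of the same cluster differed in how they varied between the arrays. They come from RefSeq on the GRCm38.p6 build, which gave a promoter for 6 of the 7 members. Capitals mark matches, on either strand, to TATAAA (the TATA box), AGGTCA (the core that nuclear receptors bind) or TTAATNATT (from the middle of the HNF1 site, HNF1 being a tubule transcription factor). Those letters occurred in 12.4%, 14% and 1.4%, respectively, of 32851 promoters of the same length. The Wfdc16 window held none of them. The Wfdc15b window held 1 AGGTCA and 1 TTAATNATT, and the Wfdc15a window held 2 AGGTCA and no TTAATNATT. A match is a description of the letters and not of a bound site.
Wfdc16 promoter, chr2:164638803-164639052 (minus strand): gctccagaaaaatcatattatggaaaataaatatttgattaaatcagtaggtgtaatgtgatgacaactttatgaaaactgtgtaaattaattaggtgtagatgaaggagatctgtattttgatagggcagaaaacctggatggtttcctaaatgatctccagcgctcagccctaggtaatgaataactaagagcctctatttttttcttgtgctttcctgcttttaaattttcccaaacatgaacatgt
Wfdc15b promoter, chr2:164221664-164221913 (minus strand): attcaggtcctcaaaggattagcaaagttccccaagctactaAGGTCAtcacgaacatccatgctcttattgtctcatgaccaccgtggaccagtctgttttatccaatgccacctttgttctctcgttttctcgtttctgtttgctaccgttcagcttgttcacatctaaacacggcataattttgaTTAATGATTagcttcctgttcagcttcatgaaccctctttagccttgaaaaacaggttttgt

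The arrays differed in a way that the groups did not explain. The 3 inner medulla genes Akr1b3, Slc14a2 and Aqp4, which mark the water- and urea-handling inner part of the kidney, had a summed level (75th percentile of the array = 1) of 58.6, 8.94 and 45.8 on labelled db/m replicates 1, 2 and 3 and of 9.26 to 10.3 on the labelled db/db arrays. That sum was mostly Akr1b3, at a log2 level of 5.69, 2.83 and 5.33 on the labelled db/m arrays and 2.89 to 3.18 on the labelled db/db arrays. By this sum labelled db/m replicates 1 and 3 stood apart from the other 4 arrays, and results are also given without them. A brighter Slc14a2 probe, A_52_P198885, was not tested because it was above background on 2 arrays of each group. Its intensities were 16000, 13.4 and 7495 on the labelled db/m arrays and 3063, 27.4 and 1679 on the labelled db/db arrays. With that probe replicate 2 of each group was low, and the split of the arrays differed from that by the sum. Markers of the cortex were present, since 8 of 8 proximal tubule genes and 5 of 5 podocyte genes passed the filter. The summed proximal tubule level was lower on labelled db/m replicates 1 and 3 (658.5 and 827) than on the other 4 arrays (991 to 1141). In bulk tissue fewer cells of a type and less RNA per cell cannot be told apart. Of the 29886 probes tested, 5295 had an unadjusted limma p under 0.05 and 0 had a Benjamini-Hochberg adjusted p under 0.05, as was also the case with the methods' t-test (4622 and 0). The median difference over those probes was -0.036 on the log2 scale. Slide 1 held labelled db/m replicate 1 together with labelled db/db replicate 3, and each of the other 2 slides held arrays of 1 group. The Lepr probe that passed the filter, A_55_P2177910, had levels whose groups overlapped through labelled db/db replicate 3, the highest array at 1.63. Labelled db/db replicates 1 and 2 lay at 0.59 and 0.64, below the labelled db/m arrays (1.16 to 1.58).

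Of the 12 member probes, 9 passed the filter, which asked that every array of 1 group or the other read the probe well above background, and each of the 7 genes had such a probe. The Wfdc1 probe A_55_P2742306 and the Slpi probe A_52_P472324 passed through 1 group alone. The genes were selected on the difference between these groups, Wfdc16 having the smallest p of all tested probes, so that the member differences are given without a test. The groups did not overlap for 2 member probes, both lower on the labelled db/m arrays. In that direction the groups did not overlap for 16.8% of all tested probes, and in the opposite direction for 7.42%. Groups of fewer arrays overlap less often over the whole array too. When labelled db/db replicate 3 was left out, the groups did not overlap for 4 member probes that were lower and 3 that were higher (Wfdc15a, Wfdc3 and Slpi), against 27.7% and 17.7% of all tested probes. With labelled db/m replicate 1 omitted these counts were 2 and 2, against 22.6% and 12.8%, and for labelled db/m replicate 2 they were 2 and 2, against 29.7% and 15.9%. By sign, 4 of the 9 probes were lower and 5 higher on the labelled db/m arrays.

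**Figure D1:**
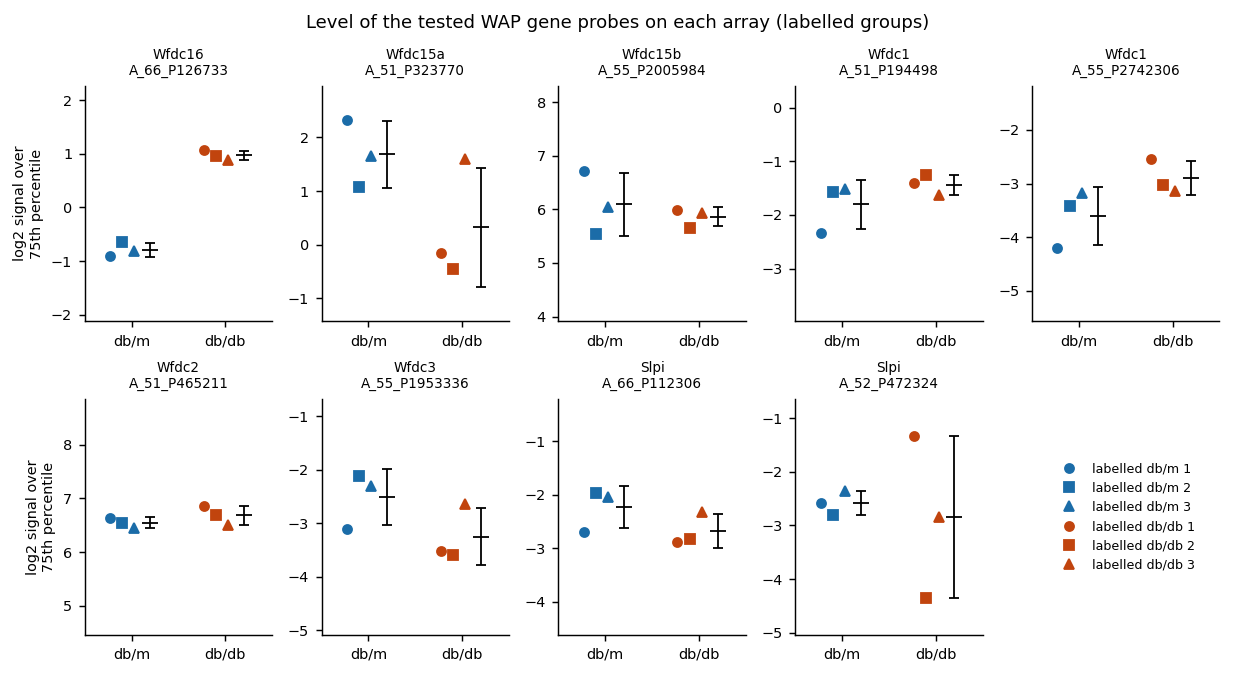
Each panel plots the log2 signal over the 75th percentile of the array for 1 tested member probe, with a point per array, and the black bar gives the mean ± SD of the 3 arrays of a group. All axes span the same range of log2 units, and the groups stand apart for Wfdc16 (-0.91 to -0.65 against 0.89 to 1.07) while most of the other panels overlap.

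Wfdc16 was the member with the clearest separation of the groups. It encodes a little-studied WAP domain protein of the chromosome 2 cluster. Its level, as log2 signal over the 75th percentile, was -0.91, -0.65 and -0.81 on the labelled db/m arrays and 1.07, 0.96 and 0.89 on the labelled db/db arrays. All 3 labelled db/m arrays lay below all 3 labelled db/db arrays, and the distance between the groups was many times the range within either. As deposited intensities these were 559, 495 and 553 against 1907, 1686 and 1774, well above background on all 6 arrays. The mean was -0.79 ± 0.13 (SD, n = 3) against 0.97 ± 0.09 (SD, n = 3), a difference of -1.76 ± 0.12 (SE) and a 3.39-fold higher level on the labelled db/db arrays. Only 3 tested probes had a lower difference. Within slide 1 the difference was -1.80. Without labelled db/m replicates 1 and 3 it was -1.62, a value that rests on 1 labelled db/m array. The part of the inner medulla signal in the Wfdc16 difference was not tested. With normexp background correction it was -1.61 and in the authors' matrix -1.70. Centring each array on its median moved the median of all tested probes to -0.22 and Wfdc16 to -1.94.

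Wfdc15b and Wfdc15a are neighbouring genes of the same cluster. Wfdc15b encodes a secreted antibacterial protein with a single WAP domain. Its level was 6.71, 5.54 and 6.04 on the labelled db/m arrays and 5.99, 5.66 and 5.93 on the labelled db/db arrays. The highest and the lowest of the 6 arrays were both labelled db/m, and the groups overlapped. The difference was 0.23 ± 0.29 (SE), and without labelled db/m replicates 1 and 3 it was -0.33. Wfdc15b was therefore not separated by the labels, and the 2 arrays with the high summed inner medulla level were also its 2 highest.

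The level of Wfdc15a was 2.32, 1.07 and 1.66 on the labelled db/m arrays and -0.16, -0.46 and 1.59 on the labelled db/db arrays. Labelled db/db replicate 3 lay within the range of the labelled db/m arrays, while the other 2 labelled db/db arrays lay below it. The difference was 1.36 ± 0.57 (SE), a 2.57-fold higher mean on the labelled db/m arrays. It was 0.72 within slide 1 and 0.75 without labelled db/m replicates 1 and 3. In sign Wfdc15a was thus opposite to Wfdc16 under each scaling that was run.

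**Figure D2:**
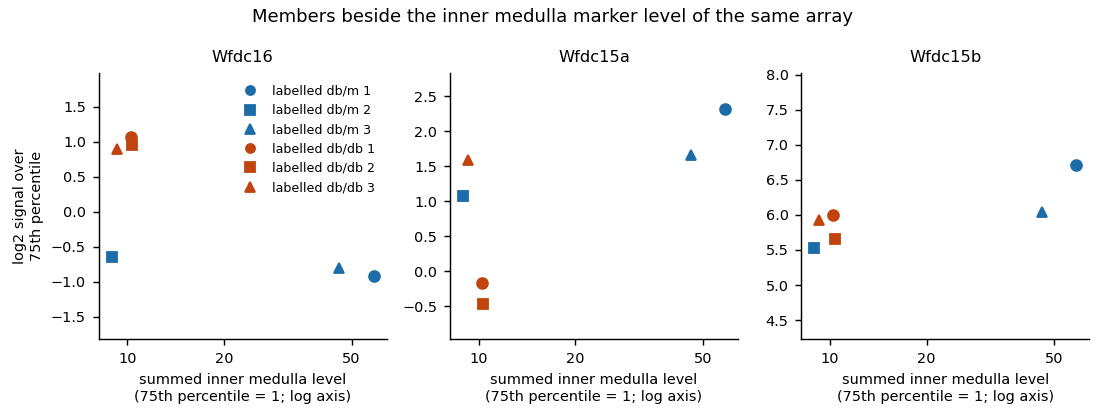
The horizontal axis, on a log scale, is the summed level of Akr1b3, Slc14a2 and Aqp4 on an array, and the vertical axis is the log2 signal over the 75th percentile for Wfdc16, Wfdc15a and Wfdc15b, with a point per array. The summed level is mostly that of Akr1b3. Labelled db/m replicates 1 and 3 lie at 58.6 and 45.8 on the horizontal axis and hold the 2 highest levels of Wfdc15a and of Wfdc15b. The next array lies close to replicate 3 in both panels. For Wfdc15a it is labelled db/db replicate 3 (1.59 against 1.66), and for Wfdc15b labelled db/db replicate 1 (5.99 against 6.04). Wfdc16 is low on all 3 labelled db/m arrays, of which replicate 2 lies at 8.94.

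With their brightest tested probes the inner medulla genes themselves were higher on the labelled db/m arrays in 3 of 3 cases. Of the 3, 2, Slc14a2 and Aqp4, had an unadjusted limma p under 0.05. Of all genes taken by their brightest tested probe, 5.1% were higher and 10.1% lower at this threshold. Slc14a2, a urea transporter, differed by 1.58 ± 0.51 (SE) with its only tested probe, A_55_P1964028, with an adjusted p of 0.241 by limma. Its probes A_52_P198885 and A_55_P2741829, which were not tested, had overlapping groups. On both, labelled db/db replicates 1 and 3 lay above labelled db/m replicate 2. Aqp4, a water channel, differed by 1.47 ± 0.48 (SE), with an adjusted p of 0.242 by limma. Their part in the Wfdc15a and Wfdc15b levels was not tested.

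Wfdc2 encodes a secreted WAP protein of epithelia that is measured in serum as a tumour marker and is made in the distal nephron. Its level was 6.64, 6.55 and 6.45 on the labelled db/m arrays and 6.86, 6.69 and 6.51 on the labelled db/db arrays. The groups overlapped and all 6 arrays lay within a narrow range. The difference was -0.14 ± 0.13 (SE), and it was 0.13 within slide 1 and 0.092 with quantile normalization.

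Wfdc1, a secreted growth inhibitor first described in prostate stroma, was read by 2 tested probes. With A_51_P194498 its level was -2.33, -1.57 and -1.51 on the labelled db/m arrays and -1.40, -1.26 and -1.63 on the labelled db/db arrays. These groups overlapped, and the difference was -0.37 ± 0.24 (SE). With A_55_P2742306, whose 60 bases span 2637 bases of the genome, the level was -4.21, -3.42 and -3.18 against -2.54, -3.03 and -3.14. The groups did not overlap, but replicate 3 of either group, the arrays nearest to each other, lay at -3.18 and -3.14. This probe was well above background on 2 of the labelled db/m arrays and on all 3 labelled db/db arrays, so that it had passed through the group in which it was higher. The difference was -0.70 ± 0.29 (SE). Both probes had the same sign under every alternative that was run.

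Wfdc3, of which little is known, was read by 1 tested probe, A_55_P1953336. Its level was -3.11, -2.12 and -2.30 on the labelled db/m arrays and -3.52, -3.59 and -2.63 on the labelled db/db arrays. Labelled db/m replicate 1 lay below labelled db/db replicate 3, so that the groups overlapped. The difference was 0.74 ± 0.34 (SE), and within slide 1 it was -0.47. The probe A_51_P138807 was well above background on 4 arrays, 2 of each group, and A_52_P416086 on none.

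Slpi encodes the secretory leukocyte peptidase inhibitor, which blocks neutrophil elastase and cathepsin G. With A_66_P112306 its level was -2.69, -1.97 and -2.03 on the labelled db/m arrays and -2.88, -2.83 and -2.32 on the labelled db/db arrays. The groups overlapped, the difference was 0.45 ± 0.24 (SE), and within slide 1 it was -0.37. With A_52_P472324 the level was -2.58, -2.81 and -2.36 against -1.33, -4.35 and -2.84. The highest and the lowest array of this probe were both labelled db/db, replicates 1 and 2, and the difference was 0.26 ± 0.68 (SE). It was 1.02 when labelled db/db replicate 1 was left out and -0.50 when replicate 2 of that group was. The probes thus disagreed on which labelled db/db array was high. The third probe, A_51_P135148, was never well above background. The 3 Slpi probes cover 5274 bases on mm9, more than the 2438 bases of the RefSeq gene, so that not all of them can lie within that gene model.

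Slpi is also made by neutrophils and by urothelium, and the markers of both are given beside it. Of 10 neutrophil genes, 6 were tested, with a summed level of 89.6 to 97.0 on the labelled db/m arrays and of 84.2 to 92.1 on the labelled db/db arrays, and Ngp was never well above background. That sum was mostly Csf3r, the G-CSF receptor, at a log2 level of 6.35 to 6.50, and other genes of the list differed more between arrays. S100a9, a calcium-binding protein of neutrophils, had a level of 1.66, -0.020 and -0.54 on the labelled db/m arrays and 0.33, -1.34 and 0.28 on the labelled db/db arrays. The highest array was labelled db/m replicate 1 and the lowest labelled db/db replicate 2, which was also the lowest for the Slpi probe A_52_P472324. Ltf and Camp, granule proteins, had an unadjusted limma p under 0.05, Ltf at -0.72 ± 0.17 (SE) and Camp at 0.30 ± 0.11 (SE). Ltf was not well above background on the labelled db/m arrays. Its highest level was on labelled db/db replicate 2 (-3.30), the array on which S100a9 was lowest.

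Of 7 urothelium genes, only Krt5 and Upk1a were tested, with a summed level of 2.38, 0.561 and 4.71 on the labelled db/m arrays and of 0.554 to 1.66 on the labelled db/db arrays. Labelled db/m replicates 1 and 3 were the highest, as for the inner medulla genes. The uroplakin Upk3a, not tested because it was above background on 2 arrays of each group, had intensities of 1150, 16.0 and 2326 on the labelled db/m arrays and of 626, 14.9 and 90.1 on the labelled db/db arrays. Labelled db/db replicate 1, the highest array of the Slpi probe A_52_P472324, was also the highest of its group for Upk3a. For the Slpi probe A_66_P112306 that array was the lowest of all, at -2.88. Labelled db/m replicates 1 and 3, the highest for Upk3a, lay at -2.58 and -2.36 with A_52_P472324. The part of the neutrophil and urothelium markers in the Slpi levels was not tested.

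**Figure D3:**
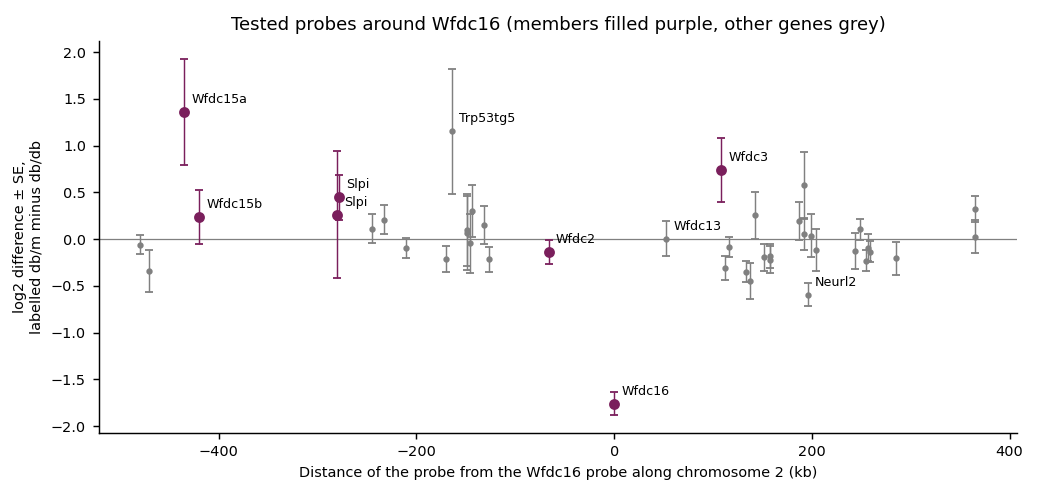
Each point is a tested probe within 500 kb of the Wfdc16 probe, with its distance from that probe in kb on the horizontal axis and its log2 difference ± SE on the vertical axis, purple for members and grey for other genes. Wfdc16 lies at -1.76, below every other probe in the window, of which the next lowest is Neurl2 at -0.59.

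The genes around Wfdc16 were examined because they did not enter the selection. Within 500 kb, 23 other genes were tested by their brightest probe, of which 12 were lower and 11 higher on the labelled db/m arrays, with a median difference of -0.063 against -0.056 over all 14948 genes tested in this way. An unadjusted limma p under 0.05 was reached by 3 of the 23, all lower, and by 0 in the other direction, where 10.1% of all genes were lower and 5.1% higher at this threshold. None of the 23 had an adjusted limma p under 0.05. Neurl2, an adaptor of a ubiquitin ligase, differed by -0.59 ± 0.13 (SE), with an adjusted p of 0.241 by limma. Dnttip1, part of a histone deacetylase complex, differed by -0.35 ± 0.11 (SE) with its brightest probe and by -0.31 ± 0.13 (SE) and -0.088 ± 0.11 (SE) with its other 2 probes. Ube2c, a ubiquitin-conjugating enzyme of mitosis, differed by -0.45 ± 0.19 (SE). The adjusted p by limma was 0.241 for Dnttip1 and 0.282 for Ube2c. With quantile normalization Dnttip1 (-0.24), and with no filter on dim probes Ube2c, no longer had an unadjusted limma p under 0.05. The nearest tested genes that were not members showed smaller differences. On one side this was Pigt, a subunit of the enzyme that attaches GPI anchors, at -0.22 ± 0.13 (SE), 127 kb away. Its other tested probe gave 0.15 ± 0.20 (SE). On the other it was Wfdc13, a WAP gene 52.8 kb away, at 0.0040 ± 0.19 (SE).

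Of the 15 other WAP domain genes, only Wfdc13 and Wfdc18 had a probe that was tested. Wfdc18, an extracellular WAP protein, differed by 0.50 ± 0.33 (SE). The median of the 2 was 0.25, and 0 of 2 had an unadjusted limma p under 0.05. Wfdc6a, Wfdc6b, Wfdc9, Wfdc11, Wfdc21 and Eppin were never well above background. The summed level of the 2 tested genes was 1.40 to 1.73 on the labelled db/m arrays and 1.26 to 1.95 on the labelled db/db arrays.

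Of 24 Kunitz, Kazal and serpin genes, 18 were tested, with a median difference of -0.064, and 2 were lower and 3 higher at an unadjusted limma p under 0.05, where 10.1% of all genes were lower and 5.1% higher. Serpinb1a, which inhibits neutrophil proteases, differed by -0.58 ± 0.17 (SE), and Serpinc1, antithrombin, by -0.77 ± 0.26 (SE). Another Serpinc1 probe gave 0.24 ± 0.37 (SE). Among the higher ones were Serpinh1, a collagen chaperone that inhibits no protease, at 0.52 ± 0.11 (SE), and Serpine2, a thrombin inhibitor, at 0.49 ± 0.13 (SE). With median centring Serpinh1 (0.33) and Serpine2 (0.30) no longer had an unadjusted limma p under 0.05. None of the 18 had an adjusted limma p under 0.05.

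Of 19 serine protease genes, 14 were tested, with a median difference of -0.012, and 3 were lower and 2 higher at an unadjusted limma p under 0.05, against the same 10.1% and 5.1% of all genes. The lower ones were the membrane proteases of epithelia Prss8 (-0.47 ± 0.18, SE), Hpn (-0.31 ± 0.12, SE) and Tmprss2 (-0.26 ± 0.11, SE). The higher ones were the mast cell proteases Cma1 (0.79 ± 0.25, SE) and Tpsb2 (0.45 ± 0.14, SE). With quantile normalization Prss8 (-0.34), Hpn (-0.12), Tmprss2 (-0.15) and Cma1 (0.62) no longer had an unadjusted limma p under 0.05. Nor did they in the authors' matrix, so that by brightest probe the 3 lower calls became 0. The other tested probes of Hpn and Tmprss2, which the list did not use, differed by -0.49 ± 0.12 (SE) and -0.51 ± 0.12 (SE) as first scaled. Tpsb2 lost its call with median centring (0.26). Elane, neutrophil elastase, the classical target of Slpi, differed by 0.013 ± 0.27 (SE). None of the 14 had an adjusted limma p under 0.05.

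Of 4 partners of Slpi, all 4 were tested, with a median difference of -0.11. Plscr1, a membrane scramblase that binds Slpi, differed by -0.32 ± 0.11 (SE), with an adjusted p of 0.251 by limma. That difference was -0.15 with quantile normalization and -0.14 in the authors' matrix, where it had no unadjusted limma p under 0.05. The other 3, Plscr4, Anxa2 and Grn, did not reach an unadjusted limma p under 0.05 with their brightest probe. Grn, progranulin, whose cleavage Slpi prevents, differed by -0.099 ± 0.15 (SE) with that probe and by -0.39 ± 0.14 (SE) and -0.53 ± 0.12 (SE) with its other 2 probes. Over the lists of other WAP, inhibitor, protease and partner genes 11 genes had an unadjusted limma p under 0.05. These lists had 2, 18, 14 and 4 genes tested, respectively. At this threshold 0, 2, 3 and 1 of them were lower and 0, 3, 2 and 0 higher, against 10.1% and 5.1% of all genes. Leaving out 1 array gave 18 for labelled db/m replicate 2, 7 for labelled db/m replicate 1, 7 for labelled db/db replicate 1 and 5 for labelled db/db replicate 2. The count over all tested probes, 5295 with all arrays, also moved, to between 2271 and 7342 with 1 array left out.

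**Figure D4:**
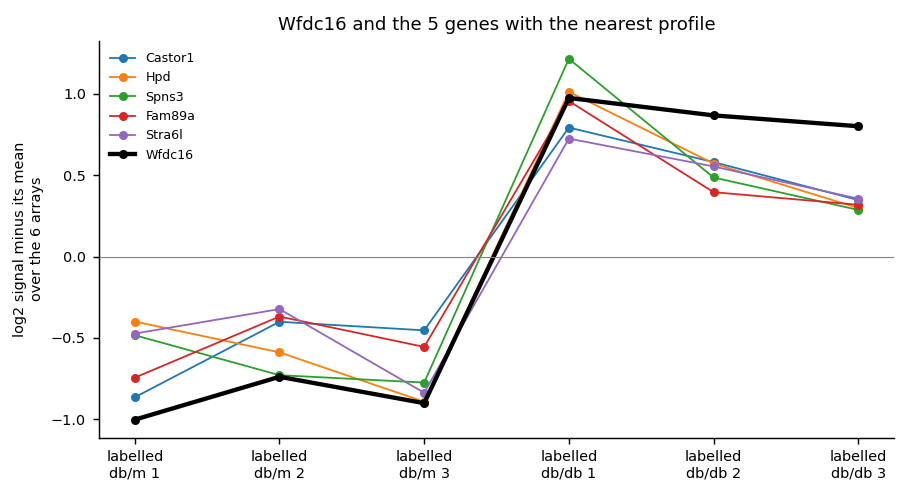
The vertical axis is the log2 signal of a gene minus its mean over the 6 arrays, which are set out along the horizontal axis, with a line per gene and Wfdc16 in black. All 6 genes lie below 0 on the labelled db/m arrays and above 0 on the labelled db/db arrays, and the 5 others spread more than Wfdc16 over the labelled db/db arrays.

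The genes whose levels tracked Wfdc16 most closely were found by the root mean square difference of the mean-centred log2 levels over the 6 arrays, a description that shares the labels with the selection. They were Castor1 (0.330), Hpd (0.348), Spns3 (0.354), Fam89a (0.360) and Stra6l (0.368), in log2 units. Of these 5 genes, 3 remained among the nearest 5 with quantile normalization, 3 in the authors' matrix, 2 with normexp and 1 with no filter on dim probes. Castor1 is an arginine sensor of the mTORC1 pathway. Hpd is an enzyme of tyrosine breakdown, and its level was 4.67, 4.48 and 4.18 against 6.08, 5.64 and 5.37. All 3 labelled db/db arrays of Hpd lay above all 3 labelled db/m arrays, as for Wfdc16. Stra6l was well above background on none of the labelled db/m arrays and on all 3 labelled db/db arrays.

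**Figure D5:**
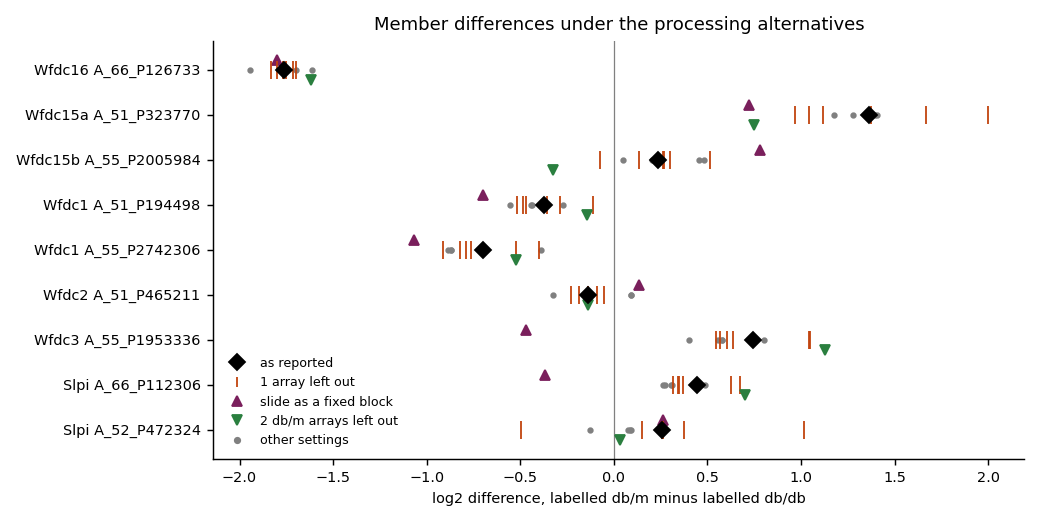
The horizontal axis is the log2 difference of each tested member probe, labelled db/m minus labelled db/db, and the symbols give its value as reported, with 1 array left out, with the slide as a fixed block, without labelled db/m replicates 1 and 3, and under the other settings. Wfdc16 stays between -1.94 and -1.61, whereas Wfdc15b, Wfdc2, Wfdc3 and both Slpi probes have points on both sides of 0.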

How the data were processed

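RNA of the renal cortex was hybridised to 6 one-colour arrays. The authors deposited scanner files with the background-subtracted spot intensity made by Agilent Feature Extraction 10.7.1.1, named in the submitters' processing notes, and a matrix of log2 values that they had normalized. The file of labelled db/m replicate 1 held signals of 3 significant digits and 71 differing gene names, so that names were taken from the others. Control and outlier-flagged spots were dropped, spots of a probe averaged, and log2 intensities of the 56605 probes centred on the 75th percentile of their array, with no pseudocount (R 4.3.3, limma 3.58.1). A probe entered the test when every array of one group or the other read it well above background. The groups were compared with lmFit and eBayes and Benjamini-Hochberg adjustment over all tested probes, and the procedure was tested on simulated data. Lists used the brightest tested probe of each gene, and 32994 probes were named through RefSeq accessions. The paper names no test for the arrays, and the methods' t-test is the equal-variance form of its ANOVA. No spot was saturated, and between 51.5% and 59.1% of the probes of an array were well above background; 3 arrays per group limit the precision. The p-values measure the spread between these arrays. The members and lists were chosen with earlier results of these data known. Named were all members, genes of the inhibitor, protease and partner lists or within 500 kb of Wfdc16 with an unadjusted p under 0.05, the nearest tested gene on each side, and the 5 nearest profiles; Wfdc18, Elane, Grn, Slc14a2, Aqp4, Akr1b3, other marker genes and Lepr were named besides. The values of 1 list gene are not reported here. The alternatives were other scaling, background correction, filters, variance models, blocks and arrays left out.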

Additional observations from a re-analysis of the deposited data

How the results depend on the processing

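The difference of Wfdc16 was negative under all 18 alternatives. The methods' t-test, a variance model with a trend, the replicate block and the filters use the same values, so they could not change the Wfdc16 difference. It was -1.83 to -1.70 with 1 array left out, -1.94 with median centring and -1.61 with normexp background correction. Without labelled db/m replicates 1 and 3 it was -1.62. That alternative was chosen after seeing the data and assumes that a lone labelled db/m array varies like the others. Wfdc15b, Wfdc2, Wfdc3 and both Slpi probes changed sign under at least 1 alternative. The count of member probes whose groups did not overlap (2) was 1 with the filter on all 6 arrays, 5 without labelled db/m replicates 1 and 3 (3 lower and 2 higher, against 31.8% and 24.3% of all tested probes), and 2 to 7 with 1 array left out. The count of tested probes with an unadjusted p under 0.05 (5295) was 2924 with the slide as a fixed block, 2142 without labelled db/m replicates 1 and 3, and 2271 to 7342 with 1 array left out (2271 for labelled db/m replicate 3, 3238 for labelled db/db replicate 1, 2623 for labelled db/db replicate 2). Its split of 3317 lower and 1978 higher became 5832 and 899 with median centring, and 3355 and 1415 with normexp. The count over the fixed lists (11) was 7 with quantile normalization, 6 with the authors' matrix, 7 with no filter, 7 by the methods' t-test and 3 without labelled db/m replicates 1 and 3, and 5 to 18 with 1 array left out. The count of neighbours (3) was 1 to 5 with 1 array left out (1 for labelled db/m replicate 3, 5 for labelled db/m replicate 2). That of probes with an adjusted p under 0.05 (0) was 0 to 120 with 1 array left out (90 for labelled db/m replicate 2, 120 for labelled db/db replicate 3) and 0 to 9 under the other settings. The cause of these changes was not tested.

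The replicate numbers were not used to pair the arrays in the reported fit, and whether they do pair them was not tested. Deviations from the group means of same-numbered arrays had correlations of 0.358, 0.149 and 0.047. For arrays of different numbers these correlations ran from -0.338 to 0.149. With the replicate block 6639 probes, 13 list genes and 3 neighbours had an unadjusted limma p under 0.05. Each number occurs once in each group, so the block could not change a member difference, and Wfdc16 stayed at -1.76. Arrays carry no counting error, and the dim Wfdc1, Wfdc3 and Slpi probes lay nearest to background.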
